A study of Mus musculus with 6 samples.

Results

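The glucocorticoid receptor gene *Nr3c1* and a set of liver genes that the receptor controls were followed across 6 liver RNA libraries. The set listed 10 genes by name: *Nr3c1*, *Fkbp5*, *Tsc22d3*, *Tat*, *Sgk1*, *Klf9*, *Zbtb16*, *Lcn13*, *Sult1e1* and *Errfi1*. Of these, 8 were found in the deposited table under the listed symbol and 1, *Lcn13*, under *Obp2a*, for which RefSeq gives *Lcn13* as a synonym. *Sult1e1* was not analysed here. The 9 genes were taken by name from 12603 rows with values, and all 9 were among the 12578 rows tested.

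By the labels, 3 libraries are from Akr1d1-knockout livers (KO) and 3 from wild-type livers (WT), and all 6 are from mice bearing tumours of Hepa 1-6, a hepatoma line of mouse origin. The labels used here give no strain, age or sex, no time of day, no feeding state, and no word on whether tumour nodules were part of the sampled tissue. They do not state whether each library is a separate animal, so the p-values rest on spread that may be technical. Each value is a linear ratio, read from the table as a gene's expression in 1 library divided by that gene's 7-library mean, and 1 of those 7 libraries is not analysed here. A value of 1 is therefore the gene's own average, and levels cannot be compared between genes.

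Glucocorticoids enter the cell, bind the receptor in a complex with HSP90 and its co-chaperones, and the receptor moves to the nucleus, where it binds DNA and raises or lowers transcription of nearby genes. In hepatocytes this program supports gluconeogenesis, amino acid breakdown and the response to fasting and stress. Steroid 5-beta-reductase, the product of *Akr1d1*, inactivates glucocorticoids as well as making bile acids, and so is one of the enzymes that set how much active hormone the receptor meets. The comparison of KO with WT livers therefore addresses whether genes that read out receptor activity differ when that enzyme is targeted.

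*Akr1d1* itself (chromosome 6, 37530173 to 37568815, plus strand, mm10) had values of 1.22, 1.21 and 1.35 in the libraries labelled KO, against 0.826, 0.697 and 0.881 in those labelled WT. No library overlapped between the groups, so the targeted gene goes against the labels at the level of whole-gene RNA, and the directions given here are between libraries as labelled. A gene-level ratio cannot show which exons were transcribed. The total number of reads is unknown. Steps between low values put the depth of the other 5 libraries at 0.894 to 1.10 times that of WT replicate 1, from 45.7% to 69.9% of the low-value ratios used. The 10 hepatocyte markers tested had values above 0 in every library, with mean ratios of 0.940 to 1.00 in KO libraries and 0.994 to 1.06 in WT libraries. In a whole-tissue sample, fewer cells of a type and less RNA per cell cannot be told apart.

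None of the 9 genes passed the test between KO and WT livers. By limma with Benjamini-Hochberg adjustment over all tested genes, 0 of 9 passed an adjusted p of 0.05, where 0.0159% of all tested genes did. At an unadjusted limma p under 0.05 the count was 0 of 9, against 12% of all tested genes. The KO and WT libraries overlapped in all 9, while they did not overlap in 19% of all tested genes. Log2 changes of KO over WT were positive in 4 genes and negative in 5, with a median of -0.05, against 49% positive and a median of -0.0043 over all tested genes.

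**Figure D1:**
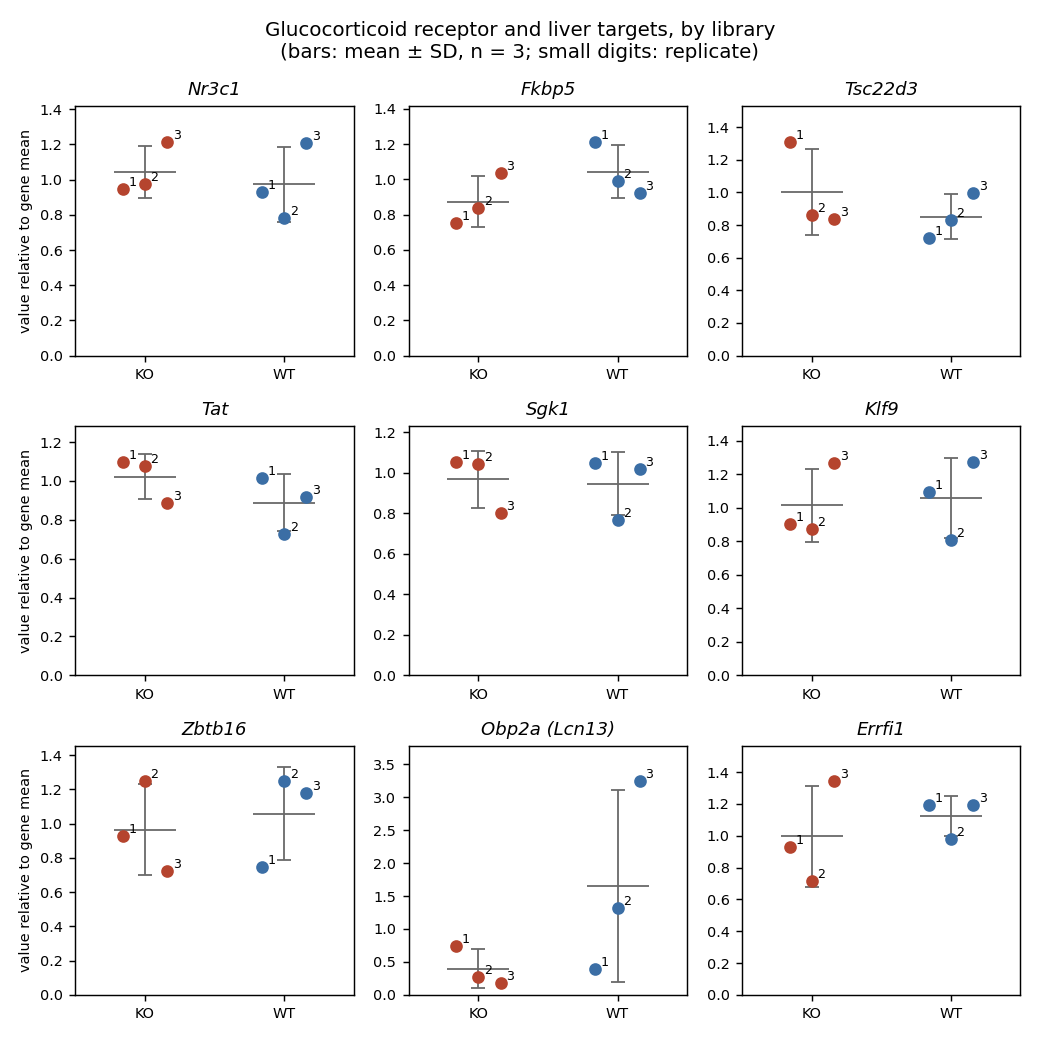
Value of each gene relative to its own mean (y axis, linear, from 0) in KO libraries (left, red) and WT libraries (right, blue); points are libraries, small digits their replicate numbers, and bars the mean ± SD of 3 libraries. In every panel the KO and WT points overlap, and the spread inside a group is widest for *Obp2a*, from 0.391 to 3.24 in the WT libraries.

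*Nr3c1*, the receptor itself (ENSMUSG00000024431.15, chromosome 18, 39410545 to 39519421, minus strand, mm10), had values of 0.946, 0.975 and 1.21 in KO replicates 1 to 3, against 0.932, 0.782 and 1.21 in WT replicates 1 to 3. The highest library of each group stood at the same level and the other KO libraries lay close to WT replicate 1. The means were 1.05 ± 0.147 in KO livers and 0.973 ± 0.215 in WT livers (SD, n = 3 each). The log2 change was 0.10 with a 95% interval of -0.32 to 0.53 (limma adjusted p = 0.845), and the two-sided exact permutation p was 0.5. The smallest p that 3 against 3 libraries allow in that test is 0.1. Without WT replicate 2 the log2 change was -0.027.

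*Fkbp5* (ENSMUSG00000024222.17, chromosome 17, 28399094 to 28517527, minus strand) encodes a co-chaperone that lowers the receptor's affinity for hormone and is itself induced by the receptor, which makes it a standard marker of glucocorticoid exposure. Its values were 0.750, 0.835 and 1.04 in KO replicates 1 to 3, against 1.21, 0.990 and 0.924 in WT replicates 1 to 3. KO replicates 1 and 2 lay below all WT libraries, and KO replicate 3 lay above WT replicates 2 and 3. The means were 0.873 ± 0.147 in KO livers and 1.04 ± 0.151 in WT livers (SD, n = 3 each), a ratio of 0.838. The log2 change was -0.23 with a 95% interval of -0.60 to 0.14 (limma adjusted p = 0.594; exact permutation p = 0.3).

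The remaining genes stand downstream of the receptor, which binds DNA as a dimer at a palindrome, the glucocorticoid response element. Promoters were searched for its consensus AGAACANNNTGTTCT, which reads the same on both strands, and for its half-sites AGAACA and TGTTCT, which are each other's reverse complement, so both strands were covered. The half-site search also finds each arm of the full palindrome. RefSeq promoter windows of 300 bases, from 250 before to 50 after a start site (GRCm38.p6, the assembly behind mm10), were available for 8 of the 10 listed genes, in 16 windows. The full palindrome occurred in 1 of these 16 windows and in 3 of 32851 windows of all genes, or 0.00913%. A half-site occurred in 4 of the 16 windows and in 19% of all windows. The 4 windows belonged to *Sgk1* and *Tsc22d3*, which each have several start sites, so windows of the same gene are not independent. The window of *Sgk1* with the palindrome and the *Tsc22d3* window with a half-site are shown, with those of *Fkbp5* and *Tat* as well-known targets that hold no such string there. Capitals mark half-site strings, and sequences read along the gene's strand.
Sgk1, chr10:21993640-21993939, plus strand: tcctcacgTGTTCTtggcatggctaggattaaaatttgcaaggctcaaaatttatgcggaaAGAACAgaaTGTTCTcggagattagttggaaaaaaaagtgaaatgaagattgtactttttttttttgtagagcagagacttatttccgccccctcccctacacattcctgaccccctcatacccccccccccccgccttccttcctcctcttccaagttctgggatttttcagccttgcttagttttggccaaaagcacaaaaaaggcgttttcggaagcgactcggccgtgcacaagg
Tsc22d3, chrX:140600473-140600772, minus strand: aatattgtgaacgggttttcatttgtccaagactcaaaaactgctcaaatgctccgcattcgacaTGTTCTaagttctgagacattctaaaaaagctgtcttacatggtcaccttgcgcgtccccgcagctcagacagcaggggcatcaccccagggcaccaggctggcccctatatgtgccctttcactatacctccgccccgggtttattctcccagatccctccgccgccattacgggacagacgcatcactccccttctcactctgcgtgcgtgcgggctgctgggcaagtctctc
Fkbp5, chr17:28486100-28486399, minus strand: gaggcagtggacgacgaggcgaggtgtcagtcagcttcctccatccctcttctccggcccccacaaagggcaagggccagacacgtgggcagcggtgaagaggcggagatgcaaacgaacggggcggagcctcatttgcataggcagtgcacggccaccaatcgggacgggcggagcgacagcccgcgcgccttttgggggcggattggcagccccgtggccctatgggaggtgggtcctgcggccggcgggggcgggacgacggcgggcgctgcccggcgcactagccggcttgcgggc
Tat, chr8:109990186-109990485, plus strand: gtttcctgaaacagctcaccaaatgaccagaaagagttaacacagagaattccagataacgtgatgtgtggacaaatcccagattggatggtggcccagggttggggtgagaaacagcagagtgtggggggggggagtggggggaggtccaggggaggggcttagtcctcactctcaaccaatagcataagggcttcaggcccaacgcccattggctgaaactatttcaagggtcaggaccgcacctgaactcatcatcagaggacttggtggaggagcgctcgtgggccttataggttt
In the *Sgk1* window the palindrome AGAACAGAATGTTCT spans chr10:21993701-21993715 and starts 189 bases before the start site of its own window and 965 bases before the next RefSeq start of the gene at 21994666. A further half-site in that window starts 242 bases before the start site. The *Tsc22d3* half-site starts 185 bases before its start site. A match of letters is a description of the sequence and does not show binding, and the lack of one in these windows says nothing of sites elsewhere in the gene.

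*Sgk1* (ENSMUSG00000019970.15, chromosome 10, 21882184 to 21999903, plus strand), a serum- and glucocorticoid-induced kinase of ion transport and cell survival, is the gene with the palindrome shown. Its values were 1.06, 1.04 and 0.803 in KO replicates 1 to 3, against 1.05, 0.769 and 1.02 in WT replicates 1 to 3. In each group 2 libraries stood just above 1 and 1 near 0.8. The means were 0.966 ± 0.142 in KO livers and 0.946 ± 0.154 in WT livers (SD, n = 3 each), a log2 change of 0.03 with a 95% interval of -0.36 to 0.42 (limma adjusted p = 0.954; exact permutation p = 0.6). This was the smallest change of the 9 genes, and its sign turned in 4 of 15 alternative settings.

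*Tsc22d3* (ENSMUSG00000031431.13, chromosome X, 140539528 to 140600659, minus strand) encodes GILZ, a leucine zipper protein that carries part of the anti-inflammatory action of glucocorticoids. Its values were 1.31, 0.861 and 0.839 in KO replicates 1 to 3, against 0.723, 0.830 and 0.998 in WT replicates 1 to 3. KO replicate 1 stood above the other 5 libraries, which lay between 0.723 and 0.998. The log2 change was 0.20 with a 95% interval of -0.29 to 0.69 (limma adjusted p = 0.732; exact permutation p = 0.5), and without KO replicate 1 it was 0.0092. *Tsc22d3* is also expressed by lymphocytes, and KO replicate 1 had the highest mean ratio for 12 T, NKT and NK cell markers. That mean was 1.43, 1.01 and 1.03 in KO replicates 1 to 3, against 0.789, 0.729 and 1.01 in WT replicates 1 to 3. Single markers were mixed, with 7 positive and 5 negative log2 changes of KO over WT. Nor was KO replicate 1 the highest library for each marker. Of 2 markers named after their values were seen, *Cd3e* stood at 2.42 in KO replicate 1, its highest value. *Gzmb* stood at 0.353 there, its lowest value of the 6 libraries. The part of these cells in the *Tsc22d3* value was not tested.

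*Tat* (ENSMUSG00000001670.13, chromosome 8, 109990437 to 109999803, plus strand) encodes tyrosine aminotransferase, the first enzyme of tyrosine breakdown and a classical hepatocyte target of glucocorticoids. Its values were 1.10, 1.08 and 0.889 in KO replicates 1 to 3, against 1.02, 0.729 and 0.918 in WT replicates 1 to 3. The top 2 libraries were KO and the lowest was WT, while KO replicate 3 lay below WT replicates 1 and 3. The means were 1.02 ± 0.116 in KO livers and 0.888 ± 0.146 in WT livers (SD, n = 3 each), a ratio of 1.15. The log2 change was 0.19 with a 95% interval of -0.17 to 0.55 (limma adjusted p = 0.653; exact permutation p = 0.3), the narrowest interval of the 9.

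*Klf9*, *Zbtb16* and *Errfi1* are regulators induced by glucocorticoids in several tissues. *Klf9* (ENSMUSG00000033863.2, chromosome 19, 23141226 to 23168134, plus strand), a Krüppel-like transcription factor, had values of 0.901, 0.874 and 1.27 in KO replicates 1 to 3, against 1.09, 0.805 and 1.28 in WT replicates 1 to 3. Replicate 3 was the highest library of both groups, as it was for *Nr3c1* and for 13.8% of all tested genes. The log2 change of *Klf9* was -0.05 with a 95% interval of -0.56 to 0.46 (limma adjusted p = 0.937; exact permutation p = 0.9). *Errfi1* (ENSMUSG00000028967.10, chromosome 4, 150853919 to 150868892, plus strand), an inhibitor of the EGF receptor, had values of 0.929, 0.719 and 1.34 in KO replicates 1 to 3, against 1.20, 0.981 and 1.19 in WT replicates 1 to 3. KO replicates 1 and 2 were the lowest libraries and KO replicate 3 the highest. Its log2 change was -0.19 with a 95% interval of -0.73 to 0.35 (limma adjusted p = 0.771; exact permutation p = 0.6), and it was -0.41 without KO replicate 3 (limma adjusted p = 0.451) and -0.00053 without KO replicate 2 (limma adjusted p = 0.999).

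*Zbtb16* (ENSMUSG00000066687.5, chromosome 9, 48654297 to 48836222, minus strand) encodes PLZF, a zinc finger factor that glucocorticoids induce strongly in many cell types and that also defines NKT cells. Its values were 0.926, 1.25 and 0.723 in KO replicates 1 to 3, against 0.745, 1.25 and 1.18 in WT replicates 1 to 3. Each group held 1 library near 0.7 and at least 1 near 1.25. The log2 change was -0.12 with a 95% interval of -0.74 to 0.50 (limma adjusted p = 0.883; exact permutation p = 0.7). The mean ratio of the T, NKT and NK cell markers, given above by library, was higher in all KO libraries than in the WT libraries. The margin was narrow, at 1.014 in KO replicate 2 against 1.007 in WT replicate 3. Of these markers 7 had a positive log2 change and 5 a negative one. The part of these cells in the *Zbtb16* values was not tested.

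*Obp2a*, listed as *Lcn13* (ENSMUSG00000062061.3, chromosome 2, 25700043 to 25703326, plus strand), encodes a secreted lipocalin of lipid and glucose metabolism that glucocorticoids lower in mouse liver. It had values of 0.735, 0.278 and 0.177 in KO replicates 1 to 3, against 0.391, 1.31 and 3.24 in WT replicates 1 to 3. KO replicates 2 and 3 lay below all WT libraries, while KO replicate 1 lay above WT replicate 1. The smallest whole reads that give these values, within 0.0609 of a read, were 8, 3 and 2 in KO replicates 1 to 3, against 4, 12 and 35 in WT replicates 1 to 3. Multiples of these give the same ratios, so whether the gene rests on few reads is not known. The means were 0.396 ± 0.297 in KO livers and 1.65 ± 1.46 in WT livers (SD, n = 3 each), a ratio of 0.240. The log2 change was -1.58, but its 95% interval ran from -3.47 to 0.32 (limma adjusted p = 0.490; exact permutation p = 0.2). Leaving out 1 library at a time gave -2.29 to -0.91. *Obp2a* lies among related lipocalin genes, and reads shared with them would make its values uncertain.

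**Figure D2:**
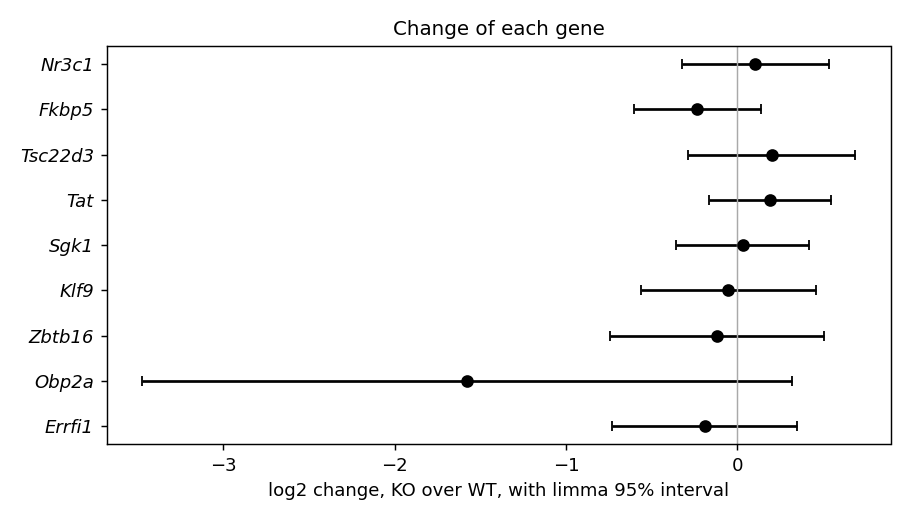
Log2 change of KO over WT (x axis, on the log2(value + 0.1) scale) for each gene, with the limma 95% interval as the horizontal bar. Every interval crosses 0, and the interval of *Obp2a*, from -3.47 to 0.32, is several times wider than the others.

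The intervals set what these libraries could show. Apart from *Obp2a*, the lowest lower bound was -0.74, for *Zbtb16*, and the highest upper bound 0.69, for *Tsc22d3*, so larger changes than these lay outside the 95% intervals of those 8 genes. All 9 genes varied more inside the groups than the median tested gene. The within-group SD on the log2 scale was 0.19 for *Tat*, the least variable, 0.36 for *Zbtb16* and 1.14 for *Obp2a*, against a median of 0.16 over all tested genes. Between the highest and the lowest of the 6 libraries, *Sgk1* differed 1.37-fold, *Errfi1* 1.87-fold and *Obp2a* 18.4-fold, against a median of 1.42-fold.

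The 9 genes did not share one order of libraries. KO replicate 3 was highest for *Nr3c1* and *Errfi1*, KO replicate 1 for *Tsc22d3*, *Tat* and *Sgk1*, and WT libraries for the other 4. WT replicate 2 was lowest for *Nr3c1*, *Tat*, *Sgk1* and *Klf9*. Likeness was measured as the root mean square difference between log2 profiles over the 6 libraries, each centred on its own mean. For *Nr3c1* the closest of 11645 genes compared were *Ddx3x* (0.041), *Heca* (0.041) and *Rps6kb1* (0.041), and *Klf9* stood at rank 202 (0.11). The other targets stood between rank 4249 (*Tat*) and rank 11527 (*Obp2a*), with a median difference over all genes of 0.27. For *Fkbp5* the closest were *Slc25a37*, *Acot11* and *Prg4* (0.049 each), and the closest listed gene was *Errfi1* at rank 2914 (0.21). These are descriptions over 6 libraries.

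**Figure D3:**
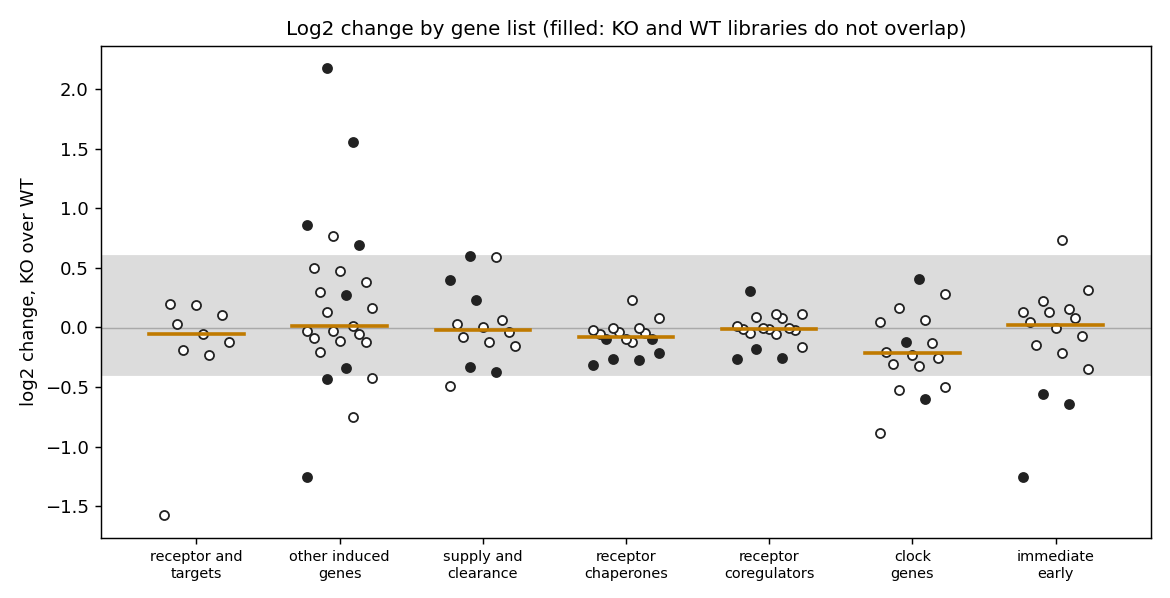
Log2 change of KO over WT (y axis) for each tested gene of 7 lists (x axis); filled points are genes whose KO and WT libraries do not overlap, orange bars the list medians, the grey line the median of all tested genes and the grey band their 5th to 95th percentile, -0.40 to 0.60. Filled points number 0 of 9 for the receptor and its targets, 8 of 25 for other induced genes and 5 of 14 for supply and clearance. They number 6 of 16 for chaperones, 4 of 17 for coregulators and 3 of 16 each for clock and immediate early genes. Over all tested genes the share not overlapping is 19%.

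Among genes that supply, carry or clear glucocorticoids, *Hsd11b1* had lower values and *Akr1d1* and *Srd5a1* higher values in all KO libraries, but none of these differences passed the adjusted threshold. Of 15 listed, 14 were tested, 0 passed an adjusted p of 0.05, and 4 had an unadjusted limma p under 0.05, 2 higher and 2 lower in KO livers, where 6.5% and 5.53% of all tested genes did. KO and WT libraries did not overlap in 5 of 14, against 19% of all tested genes. *Akr1d1* was one of them, with a 1.57-fold higher mean in KO livers (log2 change 0.60, limma adjusted p = 0.170). *Hsd11b1*, which regenerates active corticosterone inside hepatocytes, had values of 0.855, 0.849 and 0.857 in KO replicates 1 to 3, against 1.07, 1.15 and 1.18 in WT replicates 1 to 3. The KO libraries lay within 0.01 of each other and below every WT library, a ratio of 0.752 (log2 change -0.37, SE 0.07, limma adjusted p = 0.187). *Srd5a1*, a 5-alpha-reductase that also inactivates glucocorticoids, had a mean of 1.11 ± 0.0375 in KO livers and 0.928 ± 0.0678 in WT livers (SD, n = 3 each; limma adjusted p = 0.368). *Serpina6*, the plasma carrier of corticosteroids, was named after its values were seen and had a mean of 0.844 ± 0.0676 in KO livers and 1.09 ± 0.143 in WT livers (SD, n = 3 each; limma adjusted p = 0.368). The median log2 change of the list was -0.02.

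Other genes that glucocorticoids induce had log2 changes of both signs. Of 30 listed, 25 were tested, since *Bcl6* and *Per2* stood in rows sharing a name and *Orm1*, *Orm2* and *Hif3a* were not used here. None passed the adjusted threshold, 4 of 25 had an unadjusted limma p under 0.05 as higher in KO livers and 4 as lower, against 6.5% and 5.53% of all tested genes. Of the log2 changes 13 of 25 were positive, against 49% of all tested genes, with a median of 0.01. KO and WT libraries did not overlap in 8 of 25, against 19% of all tested genes. *Mfsd2a*, a lysophospholipid transporter induced by fasting, had values of 1.96, 1.17 and 2.44 in KO replicates 1 to 3, against 0.528, 0.272 and 0.209 in WT replicates 1 to 3. Its mean was 5.52-fold higher in KO livers with no overlap (log2 change 2.18, SE 0.36, limma adjusted p = 0.145). The cell cycle inhibitor *Cdkn1a* had a 1.67-fold higher mean in KO livers (limma adjusted p = 0.225) and *Pdk4*, a kinase that spares glucose by blocking pyruvate oxidation, a 3.44-fold higher one (limma adjusted p = 0.277). These 3 genes also respond to signals other than glucocorticoids, among them fasting, fatty acids and p53. Among genes of gluconeogenesis and amino acid breakdown in the list, named after their values were seen, *Sds*, which breaks down serine, had a ratio of 0.715 with every KO value under the WT values (limma adjusted p = 0.327). *G6pc*, of glucose release, had a ratio of 1.23 (limma adjusted p = 0.732), *Pck1*, of gluconeogenesis, 0.904 (limma adjusted p = 0.951) and *Tdo2*, of tryptophan breakdown, 0.935 (limma adjusted p = 0.771), all with overlapping groups.

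The spread inside the groups differed from gene to gene in this list, and *Igfbp1*, *Irs2* and *G6pc* were named after their values were seen. *Igfbp1*, which glucocorticoids and fasting raise and insulin lowers, had values of 1.52, 0.910 and 0.970 in KO replicates 1 to 3, against 0.126, 0.619 and 2.1 in WT replicates 1 to 3. The KO libraries differed 1.67-fold and the WT libraries 16.6-fold. For *Irs2* the ranges were 1.38-fold among KO libraries and 9.79-fold among WT libraries, and for *G6pc* 1.44-fold among KO libraries and 4.37-fold among WT libraries. This was not shared by all genes that fasting raises: *Pdk4* differed 2.73-fold among KO libraries and 2.60-fold among WT libraries, and *Mfsd2a* 2.08-fold among KO libraries and 2.52-fold among WT libraries. *Igfbp1*, *Irs2* and *G6pc* were lowest in WT replicate 1 and highest in WT replicate 3. The feeding state of the animals is not given in the labels, and its part in the values of the receptor's targets was not tested.

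**Figure D4:**
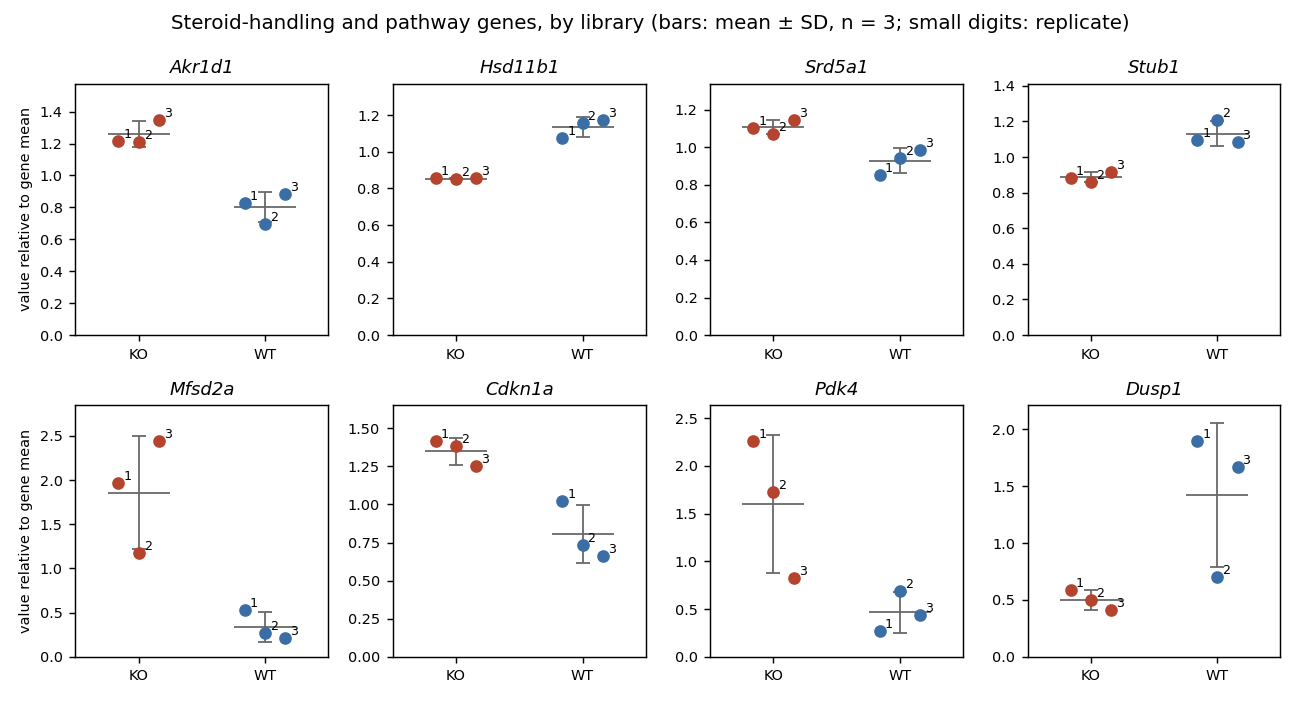
Value relative to the gene's own mean (y axis, linear, from 0) in KO libraries (left, red) and WT libraries (right, blue) for 8 genes of steroid handling and the wider pathway; points are libraries, small digits replicate numbers, and bars the mean ± SD of 3 libraries. Each gene shown is among the 3 with the smallest p of a list, a choice that favours groups without overlap. In all 8 panels the KO and WT points do not overlap, as in 19% of all tested genes. None of the 8 genes passed the adjusted threshold.

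Chaperones that fold the receptor into its hormone-binding state mostly had small negative log2 changes. Of 16 tested, 2 had a positive and 14 a negative log2 change (median -0.08), where 49% of all tested genes had a positive one. None passed the adjusted threshold, and 3 had an unadjusted limma p under 0.05, all lower in KO livers, against 5.53% of all tested genes. In 6 of 16 all KO libraries were below all WT libraries, against 10.1% of all tested genes in which they were below and 8.86% in which they were above. *Stub1*, the ubiquitin ligase CHIP that acts on HSP70 and HSP90 clients, had a ratio of 0.784 (limma adjusted p = 0.247), the receptor-associated phosphatase *Ppp5c* 0.851 and the HSP70-HSP90 organiser *Stip1* 0.817 (limma adjusted p = 0.368 each). The HSP90 genes, named after their values were seen, overlapped between the groups, with log2 changes of 0.23 for *Hsp90aa1* and -0.0036 for *Hsp90ab1*. The 10 hepatocyte markers had a median log2 change of -0.08 as well, with 3 of 10 lower in every KO library, and the part of cell composition in the chaperone values was not tested.

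Coregulators gave a median log2 change of -0.01 over 17 genes, with 0 past the adjusted threshold and 4 of 17 not overlapping between the groups, against 19% of all tested genes. *Ncoa3*, a coactivator that binds the hormone-bound receptor, had a ratio of 0.817 (limma adjusted p = 0.291) and the acetyltransferase *Crebbp* 0.874 (limma adjusted p = 0.460). In both the KO libraries lay below the WT libraries without overlap.

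Because corticosterone follows the clock and rises with stress, clock and immediate early genes were read beside the targets. Of 16 clock genes 11 had a negative and 5 a positive log2 change (median -0.22), where 49% of all tested genes had a positive one. None passed the adjusted threshold and 3 of 16 did not overlap, against 19% of all tested genes. The mean ratio of the clock list was 0.936, 0.941 and 0.918 in KO replicates 1 to 3, against 1.16, 1.00 and 1.06 in WT replicates 1 to 3. That mean does not hold for each gene: *Arntl* (1.30) and *Clock* (1.13), named after their values were seen, had ratios above 1. The repressor *Bhlhe40* had a ratio of 0.634 (limma adjusted p = 0.262), the output factor *Tef* 0.794 (0.439) and *Npas2*, a partner of BMAL1, 1.38 (0.441). *Per1*, a clock gene that the receptor induces directly and that was named after its values were seen, had a ratio of 0.856 (0.572). Of 16 immediate early genes 8 were negative and 8 positive, and 3 did not overlap, against 19% of all tested genes. At an unadjusted limma p under 0.05, 1 was higher and 3 were lower in KO livers, against 6.5% and 5.53% of all tested genes. In the 3 genes without overlap all KO libraries were below the WT libraries, as in 10.1% of all tested genes. *Ier2* had a ratio of 0.652 (limma adjusted p = 0.145) and *Egr1* 0.600 (0.357). *Dusp1*, a MAP kinase phosphatase that is both immediate early and glucocorticoid-induced, had values of 0.586, 0.496 and 0.410 in KO replicates 1 to 3, against 1.89, 0.705 and 1.67 in WT replicates 1 to 3. Its ratio was 0.350 (log2 change -1.26, SE 0.36, limma adjusted p = 0.286). The time of collection is not given in the labels, and its part in the values of the 9 genes was not tested.

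Levels of other cell types' markers and of sex-patterned genes differed between the groups in several lists, as mean ratios over the list with no test, and no cell type marker tested was at 0 in any library. For 10 monocyte and macrophage markers the mean ratio was 1.09 to 1.29 in KO livers and 0.757 to 0.924 in WT livers. All 10 had a positive log2 change. For 10 stellate and fibroblast markers the mean ratio was 1.05 to 1.19 in KO livers and 0.865 to 0.976 in WT livers. Of these, 7 had a positive log2 change and 3 a negative one. Groups did not overlap in 4 of these 10, against 19% of all tested genes. For 7 cholangiocyte markers the mean ratio was 0.883 to 1.34 in KO livers and 0.742 to 0.882 in WT livers. KO replicate 3 (0.883) was thus level with WT replicate 3 (0.882). Of these markers 6 had a positive log2 change and 1 a negative one, and 1 did not overlap between the groups. For 4 B cell markers, 4 neutrophil markers, 8 endothelial markers and 2 adipocyte markers the ranges overlapped. Of 8 hepatoma and fetal liver genes listed only 2 were tested, *Top2a* (ratio 2.07) and *Gpc3* (1.14), named after their values were seen. Their means were 1.10 to 1.38 in KO livers and 0.553 to 0.945 in WT livers, while each of the 2 genes overlapped between the groups. With *Top2a* also a gene of dividing cells in general, these 2 genes do not show how much hepatoma RNA a library held. The 5 female-biased liver genes tested had mean ratios of 1.16 to 1.94 in KO livers and 0.288 to 0.495 in WT livers, and all 5 had a positive log2 change. The 3 with the smallest p were *A1bg*, which was listed at 0 in WT replicates 2 and 3, *Cyp2c40* (ratio 3.66) and *Atp6v0d2* (1.88). The log2 change of *Atp6v0d2*, 0.84, was the smallest of the 5. The 9 male-biased genes had means of 0.875 to 0.922 in KO livers and 0.918 to 1.22 in WT livers, so the ranges overlapped. Of these genes 8 had a negative log2 change and 1 a positive one. In 4 of 9 the groups did not overlap, against 19% of all tested genes. For the 3 with the smallest p the ratio was 0.604 for *Hsd3b5*, 0.728 for *Serpina1e* and 0.749 for *Selenbp2*. Their part in the values of the receptor and its targets was not tested.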

How the data were processed

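Polyadenylated RNA of mouse liver was sequenced in 6 libraries after library preparation with NEBNext Ultra RNA, per the labels' protocols. Per the submitters' processing notes, the tools are STAR 2.10 and R 4.0.5 and the build is mm10, with no role stated. Not given in the sources used here are the counter, annotation, strand setting and library scaling. The deposited values are a linear ratio to each gene's mean over 7 libraries, a reading that rests on the values alone, since no value and no row sum exceeds 7. Of 12792 rows, 189 had no values. The gene lists leave out 216 rows whose name occurs more than once.

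Values were tested as log2(value + 0.1) in limma 3.58.1 under R 4.3.3 with no mean trend. Rows needed a value above 0 in 3 or more libraries, and p was adjusted by Benjamini-Hochberg across all of them. Log2 changes are understated on this scale, most for low values but also for values near 1. With only rows above 0 in every library and no pseudocount, the log2 change was 0.66 against 0.60 for *Akr1d1*. It was -0.26 against -0.23 for *Fkbp5* and -1.84 against -1.58 for *Obp2a*. Folds and ratios are the KO mean over the WT mean. The fit was tested on simulated data, in which few small changes and most large ones reached the adjusted threshold. Exact permutation tests were two-sided. Besides the listed genes, the text names the 3 genes of each pathway list with the smallest p and the 3 genes most like *Nr3c1* and *Fkbp5*, leaving out predicted genes. Other genes are marked as named after their values were seen, and 1 gene that this rule took is not reported here. The members and lists were chosen with earlier results of these data known. Gene positions come from GENCODE M21 (GRCm38) and promoter sequences from RefSeq (GRCm38.p6). Alternatives were other pseudocounts, filters and library scalings, a mean trend, a replicate block and each library left out. The main fit did not pair libraries by replicate number. Correlations between same-numbered libraries, given below, cannot show whether those libraries were paired.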

Additional observations from a re-analysis of the deposited data

How the results depend on the processing

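In 15 alternative settings, 0 of the 9 genes passed the threshold, and their lowest adjusted p was 0.369. The sign of *Fkbp5*, *Tsc22d3*, *Tat*, *Obp2a* and *Errfi1* did not turn in the settings run, but their log2 changes moved with 1 library left out: *Fkbp5* from -0.35 to -0.13, *Tat* from 0.069 to 0.28, *Tsc22d3* from 0.0092 to 0.31, *Errfi1* from -0.41 to -0.00053 and *Obp2a* from -2.29 to -0.91. The sign turned in 10 of 135 gene-by-setting values, 9 of them with 1 library left out, where *Nr3c1* ranged from -0.027 to 0.26, *Sgk1* from -0.098 to 0.15, *Klf9* from -0.22 to 0.082 and *Zbtb16* from -0.33 to 0.052 on the log2 scale. With quantile normalization *Sgk1* was at -0.0072. Over all genes the main count of 2 calls was 1 with a pseudocount of 0.5 or 1, 0 with a mean trend, 0 with only rows above 0 in every library and no pseudocount, and 1 to 4 with 1 library left out (1 without WT replicate 2 or KO replicate 1, 4 without WT replicate 3 or KO replicate 2). With the replicate number as a block 1 gene was called and 0 of the 9; the correlations of deviations for same-numbered libraries were -0.02, -0.002 and 0.09, and 1 of the 3 KO libraries correlated best with its own number. The cause of these shifts was not tested. Total depth is unknown.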
